A study of Mus musculus with 16 samples.

Results

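The 10 transcripts described here are mRNAs of the mitochondrial genome that encode subunits of respiratory complex I (mt-Nd1, mt-Nd2, mt-Nd3, mt-Nd4, mt-Nd4l, mt-Nd5 and mt-Nd6) and of complex IV (mt-Co1, mt-Co2 and mt-Co3). They were taken by symbol from the 56980 genes of a count table of bulk kidney cortex RNA, and all 10 were found and passed the filter on low counts. They are 10 of the 13 mitochondrially encoded mRNAs and 10 of the 37 mitochondrially encoded genes of that table. The other 3 mRNAs (mt-Cytb, mt-Atp6 and mt-Atp8) are used for comparison.

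The mice were C57Bl/6J males with floxed alleles of Degs1, which encodes dihydroceramide desaturase, the enzyme that makes ceramide from dihydroceramide. All mice, controls included, received tamoxifen, 3 mg on each of 5 days at 9 weeks of age, and were operated on at 12 weeks. The 16 libraries formed 4 groups of 4. The iGKO IRI group held Degs1 iGKO mice, in which Rosa26-CreERT2 deletes the gene throughout the body, after bilateral ischaemia-reperfusion injury (28 min of clamping of both renal pedicles and collection 24 h after surgery). The fl/fl IRI group held Degs1fl/fl littermates without Cre after the same injury. The iGKO sham and fl/fl sham groups held the same genotypes after surgery without clamping. Libraries are numbered 1 to 4 within each group (iGKO sham 4, for example). The labels do not tie each library to a named animal, so p-values measure the spread between these samples. The comparisons ask how the mRNAs differed after injury, and whether they differed with deletion of Degs1.

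Mitochondrial DNA is transcribed from both strands as long precursors, which are cut into mRNAs, tRNAs and rRNAs at the tRNAs that lie between the genes. The heavy-strand transcript carries 12 of the 13 mRNAs, and mt-Nd6 is the only mRNA of the light-strand transcript. Complex I passes electrons from NADH to ubiquinone and complex IV passes them from cytochrome c to oxygen, and both pump protons across the inner membrane. The proximal tubule, the main cell type of the kidney cortex, has many mitochondria and depends on oxidative phosphorylation for sodium and solute reabsorption.

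Before the levels, the sequences show what the counts can and cannot separate. Genes of the mitochondrial genome lie end to end and some overlap. The last 14 bases of mt-Nd5 and the last 14 bases of mt-Nd6 are the same positions read from opposite strands, and the last 7 bases of mt-Nd4l are the first 7 of mt-Nd4 on the same strand. The ends are shown 5′ to 3′, as annotated by GENCODE release vM21 on GRCm38, with the shared bases in capitals.
mt-Nd5 3′ end: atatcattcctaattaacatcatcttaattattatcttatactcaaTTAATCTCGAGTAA
mt-Nd6 3′ end: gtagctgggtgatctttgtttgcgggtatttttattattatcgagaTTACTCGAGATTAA
mt-Nd4l 3′ end: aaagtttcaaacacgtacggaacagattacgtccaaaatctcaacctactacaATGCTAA
mt-Nd4 5′ end: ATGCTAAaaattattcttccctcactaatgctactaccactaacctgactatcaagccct

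Some of the mRNAs also have near-identical copies in nuclear DNA, left by transfers of mitochondrial sequence and annotated as pseudogenes. Of the 50-base windows of each mRNA, the share that also occurs in another annotated transcript was 100.0% for mt-Co2, 99.9% for mt-Co3, 98.8% for mt-Nd4l and 98.0% for mt-Nd3. It was 62.2% for mt-Nd4, 51.1% for mt-Co1, 8.19% for mt-Nd2 and 7.61% for mt-Nd5. No window of mt-Nd1 or mt-Nd6 occurred in another annotated transcript. Nuclear DNA outside annotated transcripts was not searched. The chromosome 1 copies Gm28661 of mt-Co2, Gm28437 of mt-Co3 and Gm10222 of mt-Nd4l were 100.0% identical to the mRNA over the aligned bases. The copy of mt-Nd3, Gm28438, differed from it by 1 base in 345, T3C, counted from 1 at the first base of mt-Nd3. The first 60 bases of both are printed with that base in capitals.
mt-Nd3: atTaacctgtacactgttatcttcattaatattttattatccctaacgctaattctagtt
Gm28438: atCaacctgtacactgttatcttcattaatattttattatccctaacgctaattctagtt

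The 4 mRNAs with full-length copies had low counts. Per library, mt-Co2 had 67 to 566 reads, mt-Co3 13 to 270, mt-Nd4l 9 to 246 and mt-Nd3 3 to 65. Together they held 0.126% to 0.233% of the reads of the 10 mRNAs, and their copies were counted as well. Median counts over libraries were 297 for mt-Co2 and 316 for its copy, 134 for mt-Co3 and 140 for its copy, 92 for mt-Nd4l and 45 for its copy, and 49 for mt-Nd3 and 13 for its copy. Counts of these 4 mRNAs are therefore uncertain, because a read that fits both places cannot be assigned from its sequence. How reads with several matches were counted is not given in the sources used here.

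Per length, the level in the fl/fl sham group was 8339 ± 1589 CPM (reads scaled to a common library total) per kilobase for mt-Co1, 5221 ± 1098 for mt-Nd1, 3887 ± 638 for mt-Nd5, 3745 ± 521 for mt-Nd2, 1742 ± 485 for mt-Nd4 and 1043 ± 322 for mt-Nd6 (SD, n = 4). mt-Nd5 and mt-Nd2, neighbours in this order, differed by less than the SD. The 4 mRNAs with full-length copies lay far below, at 40.1 ± 11.8 CPM per kilobase for mt-Co2, 32.1 ± 17.3 for mt-Nd4l, 12.1 ± 2.85 for mt-Co3 and 10.2 ± 1.04 for mt-Nd3. Among the other mRNAs, mt-Cytb, whose windows occur in no other annotated transcript, had 6050 ± 1223 CPM per kilobase. mt-Atp6, with 99.5% of windows shared, had 24.4 ± 5.10 CPM per kilobase. mt-Atp8, which overlaps mt-Atp6 by 43 bases, had 48.2 ± 11.1 CPM per kilobase, with no window found in a nuclear annotated transcript.

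**Figure D1:**
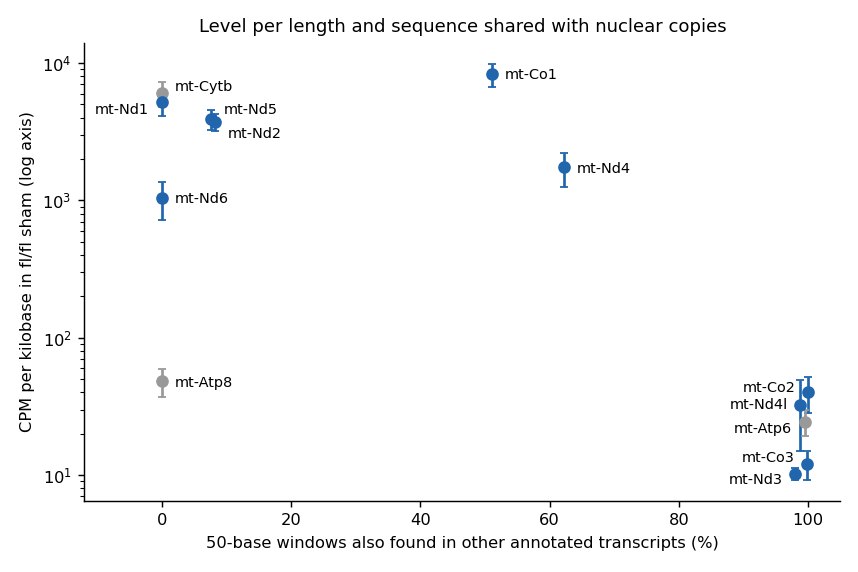
Level per length in the fl/fl sham group (vertical log axis, CPM per kilobase, mean ± SD of 4 libraries) against the percentage of 50-base windows of each mRNA that also occur in other annotated transcripts (horizontal axis). Blue points are the 10 complex I and IV mRNAs and grey points the other 3 mitochondrial mRNAs. The mRNAs with 98.0% or more of windows shared all sit below 100 CPM per kilobase, and mt-Nd6, with none shared, sits at 1043. mt-Atp8, also with none shared, sits at 48.2.

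The files held 12704273 to 18816343 counts per library. As a check of the labels, Degs1 averaged 57.0 ± 14.3 CPM in iGKO sham and 100.3 ± 12.3 CPM in fl/fl sham libraries, and 54.5 ± 6.81 CPM in iGKO IRI against 113 ± 18.2 CPM in fl/fl IRI libraries (SD, n = 4 each). The groups did not overlap after either operation (exact two-sided permutation test, p = 0.0286, the smallest that 4 against 4 allows). The level in iGKO libraries was thus 56.8% of that in fl/fl libraries after sham surgery and 48.4% after IRI. Which part of the gene is deleted is not given in the labels. All 15 proximal tubule markers were detected, with a summed level of 10654 to 48383 CPM per library.

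Over the 4 groups with all libraries, the mean part of the library held by the 10 mRNAs was lowest in iGKO IRI and highest in fl/fl sham. In them, 1 iGKO sham library was far below all others. Their share of all counts was 2.27%, 2.10%, 1.55% and 1.07% in iGKO IRI libraries 1 to 4 (1.75 ± 0.548%, SD, n = 4). In fl/fl IRI libraries it was 1.44%, 2.55%, 2.65% and 2.14% (2.20 ± 0.549%). In iGKO sham libraries it was 3.16%, 3.28%, 3.34% and 0.260% (2.51 ± 1.50%), and in fl/fl sham libraries 3.42%, 2.24%, 3.36% and 3.36% (3.10 ± 0.570%). The lowest sham share other than that of iGKO sham 4 was that of fl/fl sham 2, which lay inside the range of the fl/fl IRI group. Without iGKO sham 4 the iGKO sham mean was 3.26 ± 0.0902% (n = 3), above the fl/fl sham mean of 3.10 ± 0.570%. Every iGKO IRI share was then below every iGKO sham share. The 95% Wilson intervals of these shares were at most 0.0195 percentage points wide and cover counting error only. In bulk RNA, fewer cells of a type and less RNA per cell cannot be told apart.

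Properties of the nuclear transcripts differed in the libraries of lowest share. In each library, the difference between the 2470 GC-poorest and the 2470 GC-richest of 9879 nuclear genes was taken as a GC contrast (median of each gene's log2 level relative to its mean over libraries). The contrast was -1.11 in iGKO sham 4, -0.35 in iGKO IRI 4, -0.26 in fl/fl IRI 1, -0.20 in iGKO IRI 3 and -0.15 in fl/fl sham 2, and lay between 0.06 and 0.36 in the other 11 libraries. The 4 libraries with the lowest contrasts were the 4 with the lowest shares, in the same order. The mitochondrial mRNAs have a GC content of 31.9% to 41.1%, against an upper bound of 45.6% for the GC-poor nuclear genes. A contrast by transcript length, the 2471 shortest against the 2470 longest of the same genes, was highest in the 4 libraries of lowest share. It was 0.29 in iGKO IRI 4, 0.23 in iGKO sham 4, 0.16 in fl/fl IRI 1 and 0.09 in iGKO IRI 3, its 4 highest values, and lay between -0.24 and 0.04 in the other 12 libraries. Among those 12 it did not follow the share. It was lowest in fl/fl IRI 4 and highest in fl/fl sham 1, the library of highest share. The part of transcript length in the results was not tested. Fits that take the GC contrast into account are given with the averaged effect of IRI.

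**Figure D2:**
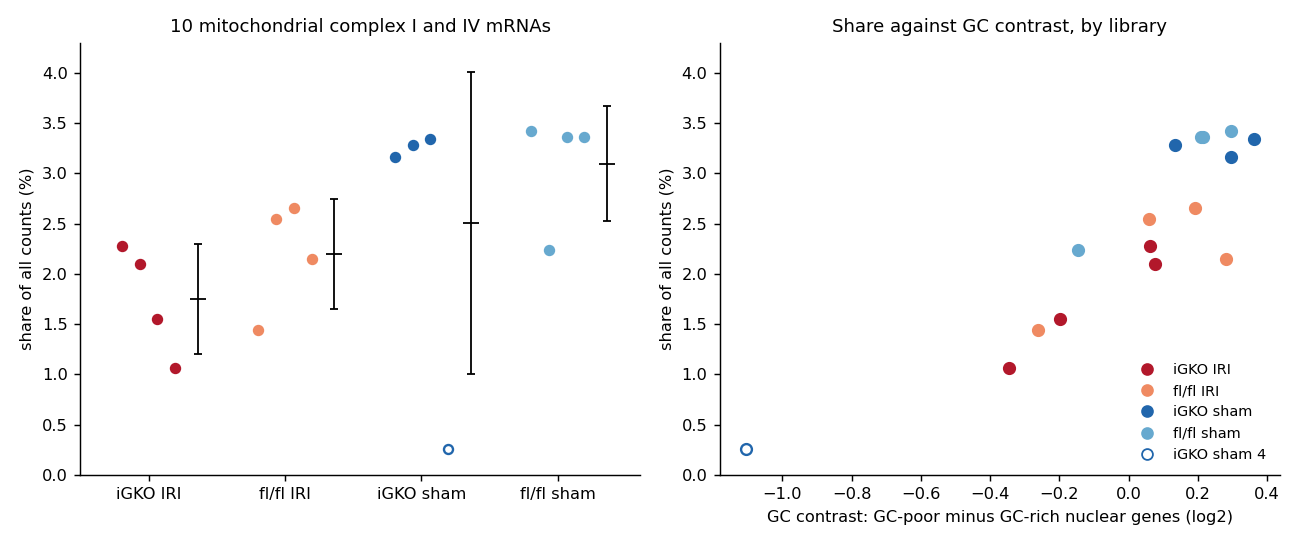
Left, share of all counts (%) held by the 10 mRNAs in each library by group, with mean ± SD of 4 libraries beside the points; the open circle is iGKO sham 4. Right, the same share against the GC contrast of nuclear genes (log2) in the same libraries. iGKO sham 4 is lowest on both axes, at 0.260% and -1.11, and the other 3 iGKO sham libraries lie between 3.16% and 3.34%.

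Among the complex I subunits, mt-Nd1 lies at the joint of the membrane arm and the arm that receives ubiquinone. It had 2912, 2803, 1822 and 1093 CPM in iGKO IRI libraries, 1807, 3502, 3756 and 3308 CPM in fl/fl IRI libraries, 5244, 5547, 5100 and 177 CPM in iGKO sham libraries, and 6047, 3647, 4732 and 5560 CPM in fl/fl sham libraries. Only iGKO sham 4 among the sham libraries lay below every library of both IRI groups, and fl/fl sham 2 lay below 1 fl/fl IRI library.

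mt-Nd2, mt-Nd4 and mt-Nd5 encode the 3 antiporter-like subunits of the membrane arm that pump protons. mt-Nd2 had 2387, 2157, 1605 and 1119 CPM in iGKO IRI, 1766, 3092, 2507 and 2734 CPM in fl/fl IRI, 3865, 4170, 4640 and 195 CPM in iGKO sham, and 4378, 3116, 4013 and 4043 CPM in fl/fl sham libraries. The highest fl/fl IRI library was thus just below the lowest fl/fl sham library. mt-Nd4 had 1872, 1246, 857 and 515 CPM in iGKO IRI, 814, 2041, 1874 and 1500 CPM in fl/fl IRI, 2462, 2829, 3059 and 129 CPM in iGKO sham, and 2601, 1419, 2918 and 2664 CPM in fl/fl sham libraries. mt-Nd5 had 5102, 4118, 3252 and 2937 CPM in iGKO IRI, 3551, 6168, 4856 and 5768 CPM in fl/fl IRI, 7226, 7446, 8372 and 1156 CPM in iGKO sham, and 7667, 5356, 7842 and 7494 CPM in fl/fl sham libraries. For mt-Nd4 and mt-Nd5 the fl/fl groups overlapped through fl/fl sham 2, and the iGKO groups through iGKO sham 4 alone.

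mt-Nd6 is a small membrane subunit whose segments help couple ubiquinone reduction to proton pumping, and its levels ran otherwise. It had 200, 380, 627 and 709 CPM in iGKO IRI, 619, 367, 289 and 285 CPM in fl/fl IRI, 402, 323, 401 and 200 CPM in iGKO sham, and 450, 791, 472 and 451 CPM in fl/fl sham libraries. In 3 of the 4 groups its highest level was in the library where the 10 mRNAs had their lowest share (iGKO IRI 4, fl/fl IRI 1 and fl/fl sham 2). In iGKO sham 4 it had its group's lowest level, but that was 37.0% of the fl/fl sham mean, while the other 9 mRNAs of that library were at 3.54% to 16.5% of theirs.

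mt-Nd3, whose loop carries a cysteine that becomes exposed when complex I is deactivated in ischaemia, and mt-Nd4l, a small membrane subunit, were at a few CPM and share their sequence with nuclear copies. mt-Nd3 had 2.23, 2.28, 2.84 and 2.16 CPM in iGKO IRI, 1.98, 4.39, 3.61 and 4.04 CPM in fl/fl IRI, 4.05, 2.91, 3.46 and 0.202 CPM in iGKO sham, and 4.03, 3.18, 3.63 and 3.42 CPM in fl/fl sham libraries. mt-Nd4l had 4.31, 5.12, 5.94 and 3.72 CPM in iGKO IRI, 5.33, 4.46, 6.13 and 6.64 CPM in fl/fl IRI, 7.43, 8.11, 10.3 and 0.606 CPM in iGKO sham, and 6.32, 7.59, 17.2 and 7.06 CPM in fl/fl sham libraries. With iGKO sham 4 aside, the iGKO IRI values of both mRNAs lay below the iGKO sham values, and the fl/fl groups overlapped for both.

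Of the complex IV subunits, mt-Co1 carries the haem and copper centre at which oxygen is reduced. It had 8926, 8544, 6622 and 4265 CPM in iGKO IRI, 5644, 9782, 11292 and 9346 CPM in fl/fl IRI, 13101, 13587, 13475 and 798 CPM in iGKO sham, and 14701, 9264, 13617 and 13951 CPM in fl/fl sham libraries. The first 3 iGKO sham libraries and 3 of the 4 fl/fl sham libraries were above all 8 IRI libraries. mt-Co2, which takes electrons from cytochrome c, had 19.5, 14.4, 15.7 and 8.99 CPM in iGKO IRI, 14.3, 20.1, 21.2 and 15.7 CPM in fl/fl IRI, 23.9, 28.9, 27.9 and 4.51 CPM in iGKO sham, and 23.5, 23.2, 23.5 and 39.5 CPM in fl/fl sham libraries. mt-Co3, a structural subunit beside the catalytic core, had 10.1, 6.35, 4.23 and 1.96 CPM in iGKO IRI, 4.38, 18.3, 9.47 and 7.65 CPM in fl/fl IRI, 10.5, 13.5, 11.9 and 0.876 CPM in iGKO sham, and 11.4, 6.42, 9.29 and 10.9 CPM in fl/fl sham libraries. The fl/fl groups did not overlap for mt-Co2 and overlapped widely for mt-Co3.

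**Figure D3:**
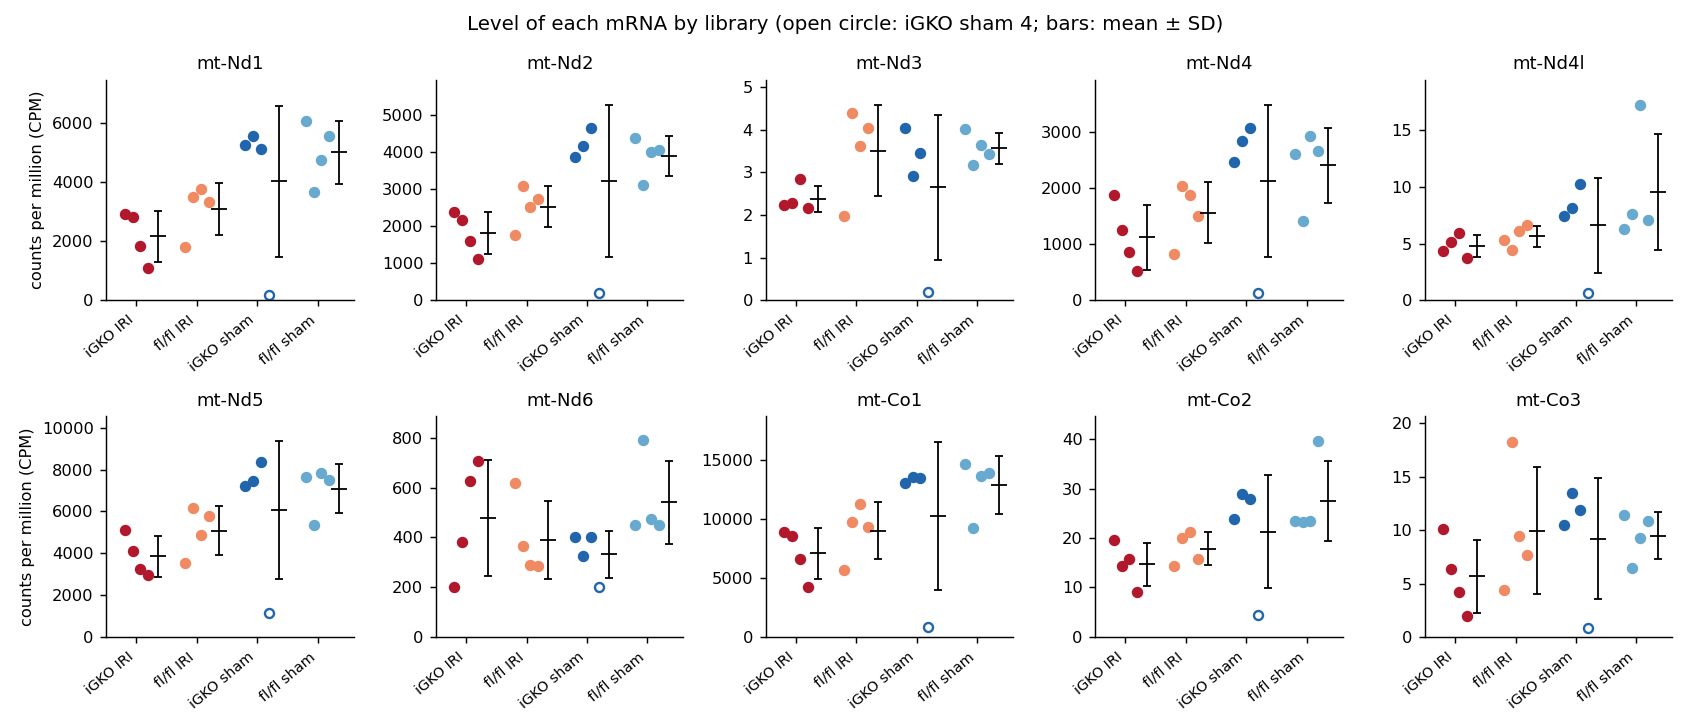
Level of each of the 10 mRNAs (CPM, linear axes from 0, 1 panel per mRNA) in the 4 libraries of each group, with mean ± SD beside the points and iGKO sham 4 as an open circle. With iGKO sham 4 aside, all 7 sham libraries lie above all 8 IRI libraries for mt-Nd2 and mt-Co2 and 6 of 7 do for 5 other mRNAs; mt-Nd3, mt-Nd6 and mt-Co3 overlap widely. In the mt-Nd6 panel the IRI libraries reach 709 CPM in iGKO IRI and 619 CPM in fl/fl IRI.

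After IRI against sham surgery in fl/fl mice, no mRNA of the 10 passed the test with all 16 libraries (edgeR's quasi-likelihood test, Benjamini-Hochberg adjusted p over 17972 genes, threshold 0.05), where 15.5% of all genes did. None had an unadjusted p under 0.05 either, and DESeq2 called none. The median log2 fold change of the 10 was -0.57, against 0.01 over all genes, and 9 of 10 values were negative. They ran from -0.76 ± 0.51 (SE) for mt-Nd4l to 0.07 ± 0.59 for mt-Co3, and the lowest adjusted p was 0.303, for mt-Co2. For mt-Nd2 and mt-Co2 every fl/fl IRI library was below every fl/fl sham library, which held for 9.82% of all genes.

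In iGKO mice, IRI against sham surgery gave a median log2 fold change of -0.60 over the 10 mRNAs and of -0.02 over all genes. None of the 10 passed edgeR's test, none had an unadjusted p under 0.05, and the share of all genes called was 0.00% (1145 genes at an unadjusted p under 0.05; DESeq2 called 43 genes and none of the 10). The values ran from -0.92 ± 0.61 for mt-Nd4 to 0.53 ± 0.36 for mt-Nd6, the only positive value. With all libraries the groups overlapped for all 10 mRNAs, and 2.76% of all genes lay wholly lower in iGKO IRI.

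Without iGKO sham 4, 9 of the 10 mRNAs lay wholly lower in iGKO IRI than in iGKO sham libraries, all but mt-Nd6, against 9.26% of all genes. The library was set apart for its low share of these same mRNAs, so values without it are no independent evidence. The median log2 fold change without it was -0.94. The lowest values were -1.29 ± 0.38 for mt-Nd4 and -1.28 ± 0.31 for mt-Nd1, and mt-Nd6 stood at 0.36 ± 0.37. Still none passed the adjustment in edgeR (8 at an unadjusted p under 0.05; lowest adjusted p 0.239), and again 0.00% of all genes were called. In fl/fl mice the same fit, which shares its estimate of spread over all groups, had 5 of the 10 at an unadjusted p under 0.05, none called and a median of -0.56, where it called 20.3% of all genes.

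The averaged effect of IRI over both genotypes rested on that library. With all 16 libraries, none of the 10 passed edgeR's test and none had an unadjusted p under 0.05. DESeq2 called none and had mt-Co2 at an unadjusted p under 0.05. The median log2 fold change was -0.57 and the lowest adjusted p 0.186, for mt-Co2, where 11.9% of all genes were called. Without iGKO sham 4, 7 of the 10 mRNAs fell after IRI and none rose, against 7.22% of all genes called lower. Leaving out any other library, in turn, gave no call among the 10.

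With all libraries none of these mRNAs passed, and mt-Nd1 had an adjusted p of 0.247 (edgeR). The values below come from the fit without the library that was set apart for its low share of these same mRNAs. Their adjusted p-values are therefore no independent evidence of a fall. Of complex I, mt-Nd1 fell in that fit by 0.98 ± 0.21 on the log2 scale (edgeR, adjusted p = 0.00811). mt-Nd2 fell by 0.91 ± 0.17 (adjusted p = 0.00383) and mt-Nd5 by 0.72 ± 0.16 (adjusted p = 0.00828). mt-Nd4 fell by 0.95 ± 0.26 (adjusted p = 0.0232) and mt-Nd4l by 0.79 ± 0.21 (adjusted p = 0.0214). Of complex IV, mt-Co2 fell by 0.74 ± 0.17 (adjusted p = 0.0105) and mt-Co1 by 0.70 ± 0.19 (adjusted p = 0.0206). The 3 that did not pass were mt-Nd3 at -0.27 ± 0.18, mt-Co3 at -0.49 ± 0.32 and mt-Nd6 at -0.05 ± 0.25. The other 3 mRNAs fell as well, mt-Cytb by 0.77, mt-Atp6 by 0.82 and mt-Atp8 by 0.57 on the log2 scale. The rRNAs, counted after rRNA depletion, fell by 0.48 (mt-Rnr1) and 0.63 (mt-Rnr2) on the log2 scale.

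Fits chosen after these values were seen bear on the GC contrast. With the contrast as a numeric term and all 16 libraries, none of the 10 was called for the averaged effect of IRI and the median was -0.28. With the term and without iGKO sham 4, mt-Nd1, mt-Nd2, mt-Nd5, mt-Nd6 and mt-Co2 fell, 5 of 10 against 10.5% of all genes called lower, with a median of -0.52. mt-Nd6 then stood at -0.62 ± 0.19 (edgeR, adjusted p = 0.0304), against -0.05 without the term. In fl/fl mice the same fit called mt-Nd1, mt-Nd2 and mt-Nd6 lower, against 13.4% of all genes. Without the 5 libraries of lowest contrast, which hold 4 of the 5 lowest shares, 6 of the 10 fell in the averaged comparison (9.38% of all genes lower) and 4 in fl/fl mice (13.5%). Leaving those libraries out also narrows the spread of the mRNAs within groups. Every fit here that called any of the 10 left out the library of lowest share, so these calls are no independent evidence either.

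**Figure D4:**
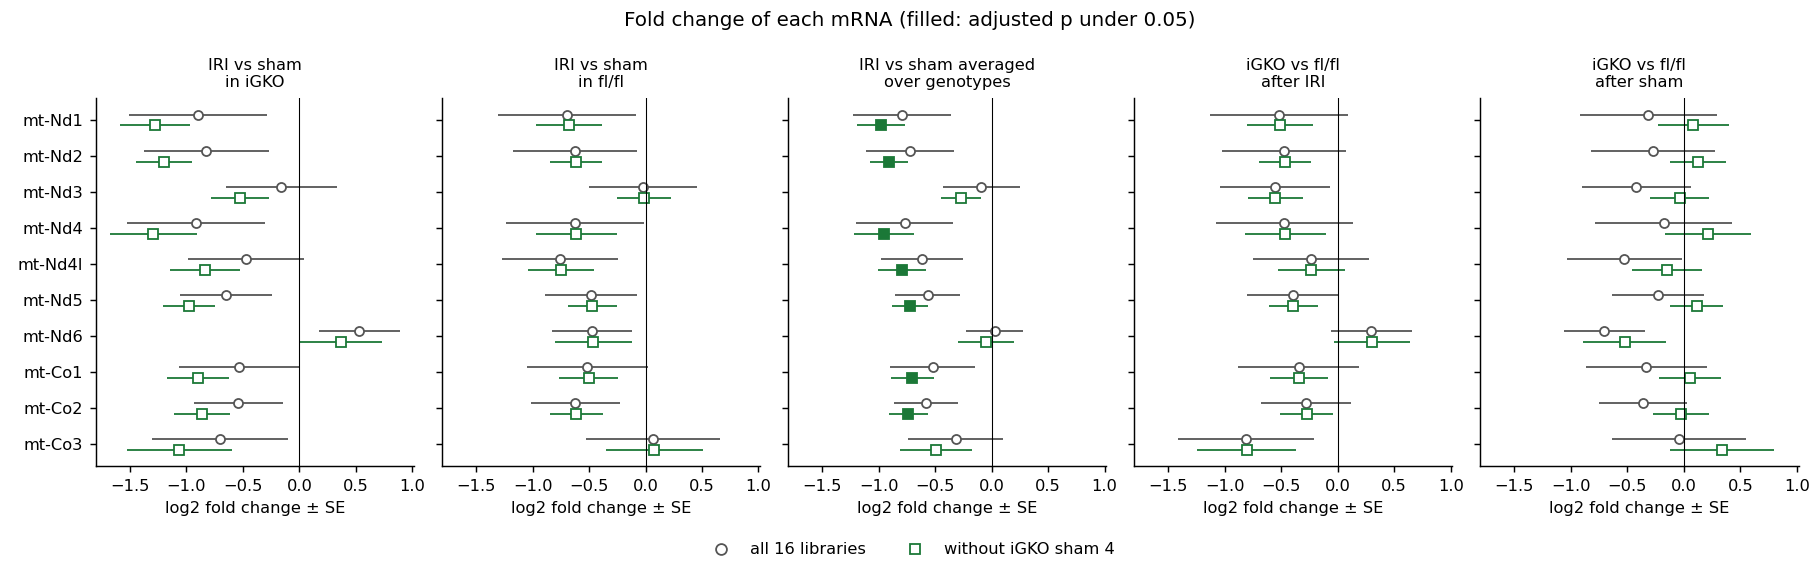
Log2 fold change ± SE of each mRNA in 5 comparisons, from the fit of all 16 libraries (circles) and the fit without iGKO sham 4 (squares); filled symbols passed the test (edgeR, adjusted p under 0.05). Filled symbols are seen only for IRI against sham averaged over genotypes without iGKO sham 4, for 7 of 10 mRNAs.

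Between genotypes none of the 10 mRNAs passed the test. After sham surgery the median log2 fold change of iGKO over fl/fl was -0.32 with all libraries and 0.07 without iGKO sham 4. edgeR called 0.00% of all genes in both fits and none of the 10, none of which had an unadjusted p under 0.05 (210 of all genes did with all libraries). The deleted gene Degs1, whose groups did not overlap, was not called there either. With all libraries it stood at -0.82 ± 0.18 (edgeR, unadjusted p = 0.000316, adjusted p = 0.99994). The lack of calls after sham surgery therefore does not show equal levels. DESeq2 called no gene and had mt-Nd6 at an unadjusted p under 0.05. mt-Nd6 was the mRNA with no overlap, lower in all 4 iGKO sham than in all 4 fl/fl sham libraries, against 0.874% of all genes, and 2.88% without iGKO sham 4. Its log2 fold change was -0.71 ± 0.36 with all libraries (edgeR, adjusted p = 0.99994) and -0.53 ± 0.37 without iGKO sham 4.

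After IRI the median log2 fold change of iGKO over fl/fl was -0.44 (0.851% of all genes called) and -0.43 without iGKO sham 4 (1.28%). The values ran from -0.81 ± 0.60 for mt-Co3 to 0.30 ± 0.36 for mt-Nd6, and 9 of 10 were negative. None of the 10 passed edgeR's test (lowest adjusted p 0.473) or DESeq2's, and none had an unadjusted p under 0.05 with all libraries. Without iGKO sham 4 none passed and mt-Nd3 had an unadjusted p under 0.05. No mRNA of the 10 lay wholly lower in iGKO IRI, where 3.04% of all genes did. mt-Rnr1 alone among the mitochondrial genes named here fell without iGKO sham 4, by 0.80 ± 0.17 on the log2 scale (edgeR, adjusted p = 0.0436).

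The difference between the genotypes in their response to IRI (the interaction) had a median of -0.15 over the 10 with all libraries and -0.51 without iGKO sham 4. edgeR called none of the 10 and 0.00% of all genes in both fits, with none of the 10 at an unadjusted p under 0.05. DESeq2 called none of the 10 and 113 of all genes, and had mt-Nd6 at an unadjusted p under 0.05. The value farthest from 0 with all libraries was 1.00 ± 0.51 for mt-Nd6 (edgeR, adjusted p = 0.468). For iGKO over fl/fl averaged over operations the median was -0.36, and -0.16 without iGKO sham 4. The share of all genes called was 0.00556% with all libraries and 0.00545% without iGKO sham 4, and edgeR and DESeq2 called none of the 10, none with an unadjusted p under 0.05.

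The 10 mRNAs made up 79.2% to 84.6% of the reads of the 13 mRNAs in every library. mt-Co1 was the largest part of the pool in 15 libraries, at 30.6% to 37.5%. mt-Nd5 held 16.1% to 22.5% of it in these 15 libraries, and 36.7% in iGKO sham 4, where mt-Co1 held 25.4%. mt-Nd1 held 8.37% to 13.9% of the pool in the 15 libraries and 5.61% in iGKO sham 4.

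mt-Nd6 varied most against the rest. For each 100 reads of the 12 heavy-strand mRNAs there were 0.745, 1.65, 3.60 and 5.74 reads of mt-Nd6 in iGKO IRI libraries 1 to 4. In fl/fl IRI libraries there were 3.70, 1.20, 0.970 and 1.01, in iGKO sham libraries 1.02, 0.773, 0.919 and 6.80, and in fl/fl sham libraries 1.05, 2.86, 1.15 and 1.10. The 5 libraries with 2.86 or more were the 5 with the lowest GC contrast, and they fell in all 4 groups. The groups overlapped throughout, with a mean mt-Nd6 share of the pool of 2.82 ± 2.08% in iGKO IRI, 1.68 ± 1.27% in fl/fl IRI, 2.26 ± 2.74% in iGKO sham (0.895 ± 0.122%, n = 3, without iGKO sham 4) and 1.51 ± 0.846% in fl/fl sham libraries (SD, n = 4). mt-Nd6 has a GC content of 34.1%, within the range of the heavy-strand mRNAs. Libraries were stranded per the labels, but the strand setting of the counting is not given in the sources used here, so reads of heavy-strand RNA over mt-Nd6 may or may not be counted with it.

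**Figure D5:**
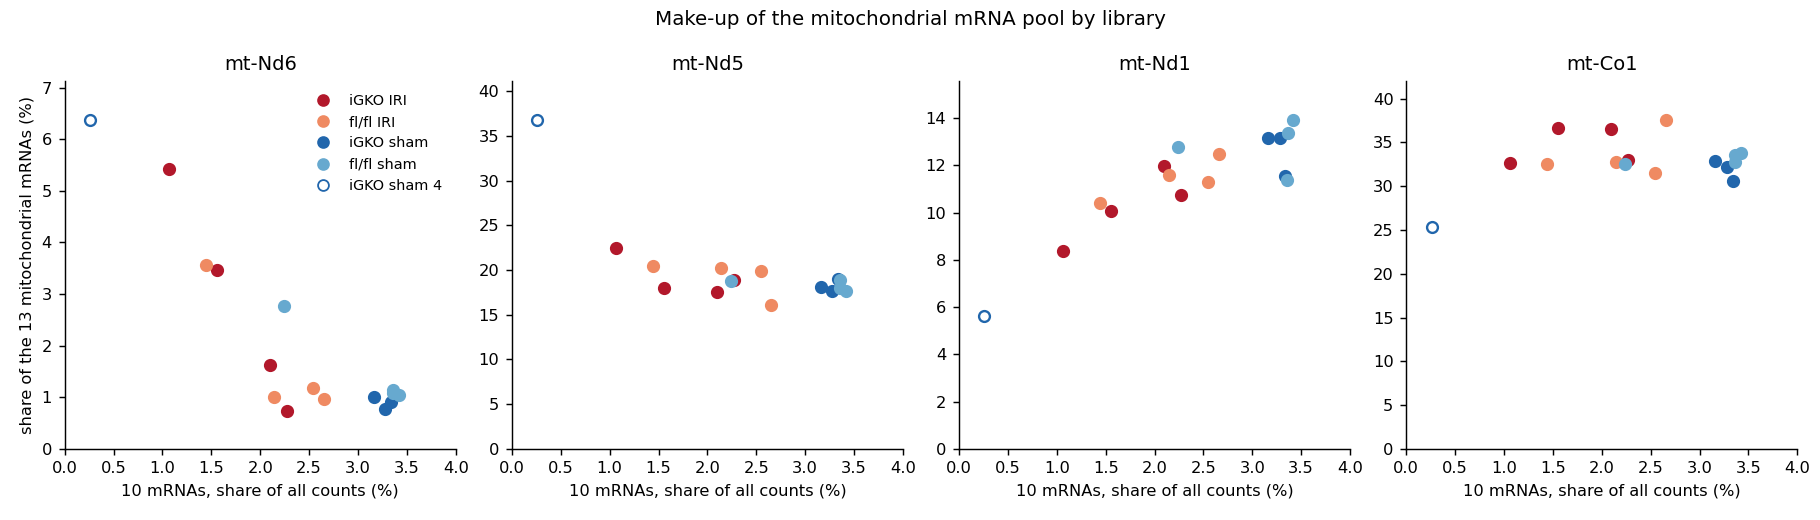
Share of the reads of the 13 mitochondrial mRNAs (%) held by mt-Nd6, mt-Nd5, mt-Nd1 and mt-Co1 in each library, against the share of all counts held by the 10 mRNAs (%). mt-Nd6 is highest in the libraries with the smallest pools, 6.37% in iGKO sham 4 and 5.43% in iGKO IRI 4, and mt-Nd5 reaches 36.7% in iGKO sham 4.

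Complexes I and IV also hold subunits encoded in the nucleus, and some of these fell after IRI in fl/fl mice. Of 36 nuclear complex I subunits 14 fell and none rose in the fit of all libraries, and of 12 nuclear complex IV subunits 5 fell and none rose, against 7.01% of all genes called lower. Their medians were -0.50 and -0.40 on the log2 scale, against 0.01 over all genes. Without iGKO sham 4, 19 of 36 and 8 of 12 fell, against 8.82% of all genes. Ndufv3, a subunit of the NADH-oxidising arm, had 64.6, 53.4, 39.8 and 44.2 CPM in fl/fl IRI and 93.2, 88.0, 90.0 and 91.0 CPM in fl/fl sham libraries, which did not overlap, and fell by 0.84 ± 0.15 on the log2 scale (edgeR, adjusted p = 0.00315). Cox5b, a zinc-binding subunit of complex IV, had 84.6, 78.5, 70.1 and 71.3 CPM in fl/fl IRI and 137, 115, 132 and 129 CPM in fl/fl sham libraries and fell by 0.75 ± 0.13 (adjusted p = 0.00237). In fl/fl IRI 1, the fl/fl IRI library in which the mitochondrial mRNAs were lowest, 26 of the 36 nuclear complex I subunits had the highest level of that group and 1 the lowest. Of the 12 complex IV subunits 5 had the highest and 2 the lowest, among them Cox7a2 at 65.0 CPM, where fl/fl IRI 2 to 4 had 83.8, 76.2 and 89.6 CPM.

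In iGKO mice IRI gave no call among either list, with medians of -0.14 for complex I and -0.26 for complex IV, where edgeR called no gene at all. After IRI the nuclear complex I list had a median of 0.36 for iGKO over fl/fl and the complex IV list 0.21, with none called, while the mitochondrially encoded mRNAs had -0.44. These comparisons share libraries, and the difference between the lists was not tested. In the averaged comparison 9 of 36 and 4 of 12 fell, against 5.55% of all genes, and without iGKO sham 4 it was 17 of 36 and 7 of 12, against 7.22%. In iGKO sham 4 the summed level of the nuclear complex I subunits was 3948 CPM and that of the complex IV subunits 2367 CPM. Each sum was the highest of its group, but single subunits went both ways. Of the 36 complex I subunits 20 had the lowest level of their group in that library and 11 the highest, and of the 12 complex IV subunits 8 had the lowest and 3 the highest. Ndufv3 had 119 CPM in iGKO sham 4, where iGKO sham 1 to 3 had 83.2, 86.1 and 95.7 CPM, and Cox5b had 102 CPM, where the others had 129, 141 and 136 CPM. Ndufa6, an accessory subunit of complex I, had 61.1 CPM there, where the others had 96.0, 100.7 and 102 CPM.

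Genes that make, process and assemble the mitochondrial products are set here against the 8.46% of all genes that rose and the 7.01% that fell after IRI in fl/fl mice. Of 10 genes of mitochondrial transcription, among them the RNA polymerase gene Polrmt and the transcription factor gene Tfam, none was called in fl/fl mice after IRI (median -0.11). Of 20 tested genes of mitochondrial RNA processing and decay, Pde12, which removes poly(A) tails, rose in fl/fl mice after IRI by 0.42 ± 0.13 on the log2 scale (edgeR, adjusted p = 0.0376) and none fell (median -0.13). Lrpprc, whose product protects mitochondrial mRNAs, stood at 0.39 ± 0.18 for iGKO over fl/fl after IRI (adjusted p = 0.243). Of 12 genes of mitochondrial DNA maintenance, Rnaseh1 rose by 0.66 ± 0.20 (adjusted p = 0.0341) and Rrm2b, a ribonucleotide reductase subunit, fell by 0.65 ± 0.20 (adjusted p = 0.0356) in fl/fl mice, with a median of -0.15 for the list. Of 20 genes of complex IV assembly Cox15, needed for haem A, fell there by 0.57 ± 0.17 (adjusted p = 0.0312), with a list median of -0.21. Of 12 tested genes for complex I assembly Ecsit fell by 0.64 ± 0.18 (adjusted p = 0.0233) and Ndufaf3 by 0.65 ± 0.20 (adjusted p = 0.0384), with a list median of -0.41.

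Markers of cell types and injury moved with the groups. All 7 markers of injured tubule and all 6 of neutrophils rose after IRI in fl/fl mice (8.46% of all genes rose), with medians of 4.60 and 3.84 on the log2 scale. There 9 of 15 proximal tubule markers fell, with a median of -1.35, against 7.01% of all genes. Of markers of thick ascending limb 3 of 6 fell (median -1.31), and of distal convoluted and connecting tubule 3 of 6 (median -1.30). Of the 7 injury markers, 5 were lower in iGKO than in fl/fl mice after IRI (0.673% of all genes). Summed proximal tubule markers had a range of 27297 to 31268 CPM in iGKO IRI, 10654 to 33141 CPM in fl/fl IRI, 38352 to 43728 CPM in iGKO sham and 39078 to 48383 CPM in fl/fl sham libraries. The lowest iGKO sham value was that of iGKO sham 4, where the other 3 had 43085 to 43728 CPM. That library also stood outside the other 3 for summed markers of fibroblast and mural cells (1369 CPM, the others 652 to 833), skeletal and smooth muscle (76.4 CPM, the others 31.7 to 44.1), collecting duct (460 CPM, the others 337 to 358) and neutrophils (2.29 CPM, the others 9.00 or more). Thick ascending limb markers were higher there (4593 CPM, the others 3529 to 4058). So were those of monocytes and macrophages (123 CPM, the others 85.4 to 115). Endothelium (382 CPM, the others 413 to 485) and fat and adrenal markers (6.00 CPM, the others 7.61 or more) were lower. Sums for distal convoluted and connecting tubule, podocyte, lymphocyte, erythrocyte and injured tubule lay within the range of the others. Summed injury markers had a range of 1438 to 3180 CPM in iGKO IRI, 3565 to 14911 CPM in fl/fl IRI, 991 to 2260 CPM in iGKO sham and 696 to 1428 CPM in fl/fl sham libraries. No marker of these lists was at 0 in every library. Havcr1, the injury marker KIM-1, had 84.0, 104, 28.0 and 122 CPM in iGKO IRI and 101, 1325, 1666 and 710 CPM in fl/fl IRI libraries. fl/fl IRI 1 thus had the lowest Havcr1 and the lowest share of the 10 mRNAs of its group. The part of cell types and of injury in the levels of the 10 mRNAs was not tested.

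Among 9796 nuclear genes with a mean of at least 10 CPM, those most like the summed level of the 10 mRNAs across the 15 libraries other than iGKO sham 4 were Sacm1l (Spearman's rho 0.97), Itfg1 (0.96), Galc (0.95), Ythdf3 (0.95) and Gng12 (0.95). The most opposite were Tapbp (-0.91), Crlf2 (-0.91), Ddah2 (-0.91), Tssc4 (-0.90) and Mcrip1 (-0.90). These values describe the ranking; the libraries fall into 4 groups and share the normalization, and the GC contrast moves with the same level.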

How the data were processed

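Total RNA of flash-frozen kidney cortex was depleted of rRNA and made into stranded libraries, per the labels' protocols. The deposited values are raw counts of reads per gene, whole numbers with no normalization, for 56980 gene IDs in 16 libraries with 1 batch label. The submitters' processing notes name STAR 2.7.9a, cutadapt 1.16, featureCounts 1.6.3, FastQC, Picard, MultiQC, DESeq2 1.36.0 and the build GRCm39 (mm39). The annotation release, strand setting and treatment of reads with several matches are not given in the sources used here, and each can move counts of overlapping or copied genes.

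Symbols, lengths, GC content and sequences came from GENCODE vM21 (GRCm38), matched by gene ID, and no coordinates are printed. Symbols were matched for 52073 IDs. The 4907 without one held 0.840% to 1.77% of counts and stayed in the tests.

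Genes kept by filterByExpr (17972, or 18339 without iGKO sham 4) were scaled by TMM and fitted with edgeR 4.0.16 in R 4.3.3, with 1 coefficient per group and 1 estimate of spread over all groups. Tests were quasi-likelihood, two-sided, and adjusted by Benjamini-Hochberg over all genes at a threshold of 0.05. CPM values use TMM-scaled totals. An SE is the log2 fold change divided by the root of F. The fit was tested on simulated data.

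Alternatives were RLE scaling, scaling without mitochondrial genes, DESeq2 1.42.0, no filter, a robust fit, a replicate block, the compared groups alone and leaving out each library. The contrasts by GC content and length, the fits with the GC contrast and the places of single libraries within their group were chosen after seeing the data. The members and lists were chosen with earlier results of these data known. Named genes were the 10 mRNAs, the other mitochondrial mRNAs and rRNAs, Degs1, up to 4 genes of smallest p per list, and the 5 nuclear genes of highest and the 5 of lowest rank correlation. Havcr1 in every IRI library was added, and Cox5b, Ndufa6, Ndufv3 and Cox7a2 in single libraries were chosen after their values were seen. Intervals (95%, Wilson) include counting error alone, because PCR copies cannot be told from separate molecules. All pairs of replicates differed beyond sampling noise.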

Additional observations from a re-analysis of the deposited data

Results flagged for a closer look

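In 9 of 44 groups of 4 libraries tested, 1 library stood apart from the other 3 by a gap to the nearest above the 95% critical value of Dixon's test. Chance gives about 1 in 20 independent groups, but these groups are not independent. They reuse the same libraries, and the share is a sum over the 10 mRNAs. iGKO sham 4 was set apart for its low share of these mRNAs, so its flags are no independent evidence. In iGKO sham 4 this held for mt-Nd1 at 177 CPM, mt-Nd5 at 1156 CPM, mt-Co1 at 798 CPM and the share of counts in the 10 mRNAs at 0.260%. In fl/fl sham 2 it held for mt-Nd5 at 5356 CPM, mt-Nd6 at 791 CPM and the share at 2.24%. mt-Nd6 was above the other fl/fl sham libraries there, and mt-Nd5 and the share were below them. mt-Nd4l at 17.2 CPM in fl/fl sham 3 and mt-Co2 at 39.5 CPM in fl/fl sham 4 were high, and both mRNAs share nearly all their sequence with nuclear copies.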

How the results depend on the processing

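With all 16 libraries, none of the 10 mRNAs was called in any of the 7 comparisons under another scaling, filter, robust fit or test. Leaving out each library in turn gave 0 to 7 calls for IRI against sham averaged over genotypes, the 7 without iGKO sham 4, and 0 in the other comparisons. With the GC contrast as a term and without iGKO sham 4 there were 5 calls averaged over genotypes and 3 in fl/fl mice, and without the 5 libraries of lowest contrast 6 and 4. Leaving those libraries out changes the number of samples as well as the contrast. Degs1 in iGKO against fl/fl mice after IRI was -1.05 on the log2 scale (edgeR, adjusted p = 0.0325). It was -1.02 (adjusted p = 0.317) with only the compared groups, which leaves fewer samples, -0.90 (adjusted p = 0.0773) with the GC term and without iGKO sham 4, and -1.15 to -0.96 leaving out each library. It lost its call without iGKO IRI 1, 2 or 3, fl/fl IRI 3 or 4, or fl/fl sham 4 (adjusted p 0.0508 to 0.133). The cause of the change with the GC term was not tested. Counts were lowest for mt-Nd3, with 3 to 65 reads per library, the 3 in iGKO sham 4. Without that library the SE of its log2 fold change for IRI against sham in fl/fl mice was 0.24, against 0.48 with it.

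With the replicate number as a block, 0 of the 10 mRNAs were called in all 7 comparisons and Degs1 after IRI was -1.04 (edgeR, adjusted p = 0.0544). Deviations from group means correlated at -0.36 to 0.447 in 24 same-number pairs (median 0.009, 6 over 0.1). In 72 other pairs they correlated at -0.434 to 0.399 (median -0.002, 23 over 0.1). The highest value, 0.447, was that of iGKO sham 4 and iGKO IRI 4. Each library enters many pairs, so these correlations cannot decide whether the numbers pair the samples. The block moved the calls over all genes in iGKO against fl/fl mice after IRI to 0, against 153 without it.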
